A study of Mus musculus with 4 samples.

Results

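Keratinocytes with transcripts of Lhx2, Shisa2 and Grm8 were examined in single-cell RNA libraries of the mouse digit. They were chosen by UMIs (unique molecular identifiers, 1 for each captured RNA molecule). A barcode had to hold 500 or more genes, 1000 or more UMIs, no more than 10% mitochondrial UMIs and no UMI of the immune gene Ptprc or the endothelial gene Cdh5. It also needed at least 10 UMIs of Krt5, Krt14, Krt15 and Krt17 together and fewer than 4 of Mki67, Top2a and Cenpf together. Of such gated keratinocytes, those with a summed Lhx2, Shisa2 and Grm8 count of at least 2 were kept where this sum exceeded 3 others. The others were a basal sum (Col17a1, Fras1, Wnt3), a suprabasal sum (Krt2, Dsc1, Cst6, Serpinb12) and a hair matrix sum (Krt35, Krt25, Krt28). This gave 302 cells, called the Lhx2 class here, of 3049 gated keratinocytes and 39266 cells through the filter. The same gates with the basal sum largest gave the basal class of 1875 cells, used below as the nearest comparison.

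All mice were wild-type FVB/NJ animals of 8 weeks, pooled from males and females according to the labels. Digits were taken unamputated or at 12, 17 or 28 days post-amputation (dpa) through the middle phalanx (P2), a level at which the digit scars and does not regrow. With 1 library a group there was nothing to test a difference against, and no p-value or replicate check stands behind any of them. Live cells were sorted as negative for propidium iodide after digestion with trypsin and collagenase I, and the animals in each pool were not told apart. The library labelled 12 dpa held female cells among the members and the others male ones: Xist stood at 687 CPM (UMIs of a gene relative to all UMIs of the members, scaled to 1e+06) at 12 dpa and at no more than 1.48 CPM elsewhere. Every difference between the 12 dpa library and the rest therefore cannot be told apart from sex.

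Hair follicles hold stem cells in the bulge, a niche of the outer root sheath, and in the hair germ beneath it. Bulge keratinocytes are known for Krt15, Lgr5, Sox9 and the LIM-homeodomain factor Lhx2, which helps keep them quiescent and organised. They sit between interfollicular epidermis, which stratifies and cornifies, and the lower follicle, which makes the hair shaft under Wnt, BMP and hedgehog signals.

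Lhx2 (GRCm38 chr2:38339281-38369733) was detected in 87 of 98 members of the unamputated library, 23 of 28 at 12 dpa, 15 of 23 at 17 dpa and 117 of 153 at 28 dpa. Shisa2, an inhibitor of Wnt and FGF receptor maturation, was detected in 76, 21, 15 and 116 members in that order. Grm8, a glutamate receptor, was detected in 71, 24, 19 and 88. All of these genes together were detected in 52, 17, 10 and 46 members, and the median summed count was 14.5, 13, 9 and 5 UMIs. The 28 dpa members thus carried the fewest UMIs of the genes that chose them, in shallower cells: the median depth of a member was 12101 UMIs in the unamputated library, 11951.5 at 12 dpa, 9053 at 17 dpa and 7373 at 28 dpa.

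Members were a range of cells and not a closed group. The sum lay at exactly 2 UMIs in 23 of them, and in 43 it exceeded the next sum by 1 UMI. Another 290 gated keratinocytes had a sum of at least 2 but were left out because another sum was as large or larger. The 23 cells just inside the limit had 167 CPM of Lgr5, a stem cell receptor, and 3984 CPM of Krt15. The 13 cells just outside it, with 1 UMI and none of the other sums, had 36.6 and 3244 CPM, and the 279 cells with 3 or more UMIs had 482 and 3823 CPM. Of the 23 cells, 18 were from the 28 dpa library, so library and distance from the limit cannot be told apart here. Between 0.653% and 2.08% of immune cells (at least 2 UMIs of Ptprc) held at least 2 UMIs of the choosing genes, the highest share at 28 dpa. At least 10 UMIs of the gate keratins were held by 4.22% of immune cells at 28 dpa and by 1.09% to 1.80% elsewhere.

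Some members also carried RNA of other cell types. In all 4 libraries a gap separated members with few collagen UMIs (Col1a1, Col1a2 and Col3a1, at most 24) from members with 124 to 1782. Leaving out members with at least 50 collagen UMIs, at least 10 of the pericyte gene Rgs5 or at least 20 of a list of immune genes removed 2, 4, 2 and 14 cells. This choice was made after seeing the data. These cells held 87.9% to 97.6% of the Col1a1 UMIs of the members, and the summed level of 6 fibroblast genes went from 2224, 12038, 9894 and 5713 CPM to 292, 495, 484 and 553 CPM without them. Values without these mixed cells are given beside the lists described below whose count of genes past 2-fold changed at 28 dpa without them. They are also given beside Krt16, Krt75, Krt79 and Postn, whose direction in 1 library turned by a wide margin. Of lists not described, 5 of 6 fibroblast genes were higher at 28 dpa, and 3 without the mixed cells. Of 5 outer root sheath and companion layer genes 1 was higher in both cases, and 1 was lower only without the mixed cells. Between libraries 19 to 87 barcodes were shared, none of them by members.

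**Figure D1:**
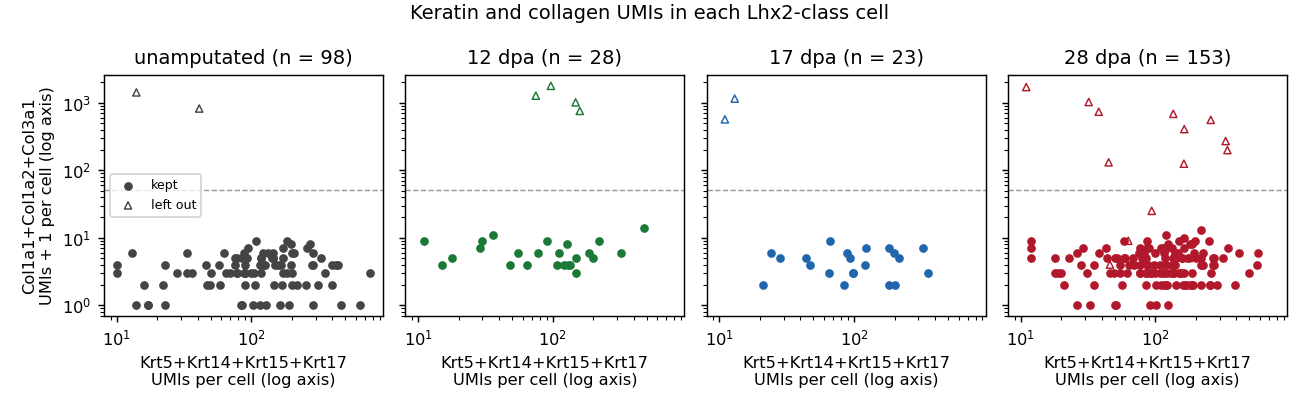
Each point is 1 member; the horizontal axis gives UMIs of Krt5, Krt14, Krt15 and Krt17 together and the vertical axis gives collagen UMIs plus 1, both on log axes, in 1 panel per library. Filled circles are the members kept and open triangles the mixed cells left out in the added alternative; the dashed line is the limit of 50 collagen UMIs, and no member lay between 24 and 124.

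The first comparison was of abundance. The Lhx2 class made up 10.3% of gated keratinocytes in the unamputated library (98 of 950, exact Clopper-Pearson 95% interval 8.45 to 12.4). It made up 7.02% at 12 dpa (28 of 399, 4.71 to 9.98), 5.23% at 17 dpa (23 of 440, 3.34 to 7.74) and 12.1% at 28 dpa (153 of 1260, 10.4 to 14.1). The 17 dpa share was thus the lowest and its interval did not reach those of the unamputated and 28 dpa libraries, which overlapped each other. All such intervals cover counting error only. As a share of all filtered cells the class was 0.820%, 0.403%, 0.265% and 1.31%. The order changed with the cell filter: under a stricter one (1000 genes, 2000 UMIs, 5% mitochondrial UMIs) the shares were 15.3%, 16.2%, 7.84% and 15.4%, so that 12 dpa was then the highest. With every cell thinned to 3000 UMIs before the rule they were 6.49%, 4.82%, 2.99% and 7.87%, the order of the unthinned cells.

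**Figure D2:**
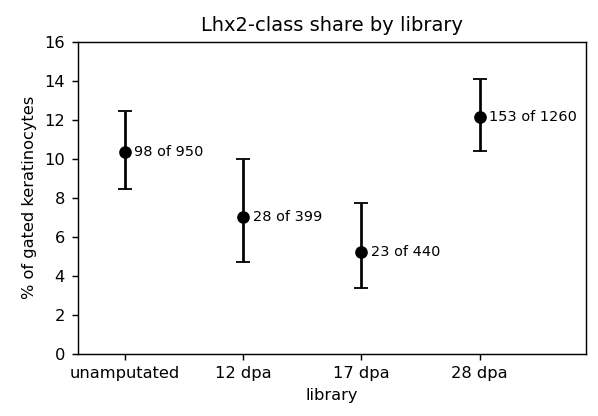
Share of gated keratinocytes in the Lhx2 class (vertical axis, %) in each of the 4 libraries; bars are exact 95% intervals for counting error and labels give cells. The 17 dpa share of 5.23% is the lowest and the 28 dpa share of 12.1% the highest.

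The follicle label was then set beside markers. Krt15 (chr11:100131758-100135928), the keratin of the bulge and of basal cells, is one of the gate genes; it stood at 3286, 1474, 5548 and 4845 CPM in members of the unamputated, 12, 17 and 28 dpa libraries and at 872, 487, 1139 and 828 CPM in the basal class. The class was thus above basal cells in every library, and lowest at 12 dpa. Lgr5 (chr10:115450311-115587780) stood at 634, 481, 557 and 284 CPM against 116, 46.5, 58.7 and 50.8 CPM in basal cells. Sox9, the factor of the outer root sheath, stood at 453, 266, 524 and 411 CPM. Because detection depends on depth, members were also thinned to 3000 UMIs each, which left out 0, 0, 2 and 10 shallower cells. Lgr5 was then detected in 61.2%, 57.1%, 38.1% and 42.0% of members, in 5.93% to 14.7% of basal cells and in at most 0.698% of immune cells. Unthinned, it was detected in 75.5%, 75.0%, 60.9% and 55.6% of members.

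Of the 6965 genes whose mean over the libraries of the class reached 20 CPM, 26.5% were above the basal class in all 4 libraries by any margin. Of 11 bulge genes among them, 9 were. They included Tcf7l1 and Tcf7l2, DNA-binding partners of beta-catenin; Vdr, the vitamin D receptor needed for hair cycling; Tbx1, a T-box factor of bulge cells; and Nfatc1, a factor of stem cell quiescence. In cells outside the keratin gate the 13 bulge genes of the full list summed to 2771, 3895, 2483 and 1633 CPM, of which Postn, also a stromal gene, gave 1830, 3085, 1582 and 763 CPM, beside 3818, 3395, 4533 and 2267 CPM in members. Cd34, a surface marker of mouse bulge cells, was low: 39.3, 4.47, 88.9 and 79.1 CPM. Of 6 hair germ and matrix regulators at that level, 5 were above the basal class in all 4 libraries, as were 13 of 20 BMP and TGF-beta genes and 15 of 23 Wnt genes. Hoxc13, an activator of hair keratin genes, stood at 81.6, 87.2, 122 and 92.7 CPM. Of the lower follicle, 15 hair shaft and inner root sheath genes summed to 24.5, 42.5, 4.68 and 37.1 CPM, and 8 of them were at 0 in all libraries. The rule left out cells richer in the hair matrix keratins Krt35, Krt25 and Krt28, so this low level is in part set by the choice of members. Krtap17-1, a hair keratin-associated protein outside that list, stood at 63.0, 98.4, 131 and 52.0 CPM. Of 5 Merkel cell genes 4 were at 0 in all libraries, as were all 4 red cell genes. The sums of some other lists were above the basal class. The 9 genes of simple and eccrine gland epithelium summed to 177, 284, 215 and 210.3 CPM against 77.6 to 103 CPM in basal cells. In gated keratinocytes with the suprabasal sum largest they summed to 227, 142, 343 and 255 CPM. The 7 melanocyte genes, 3 of them at 0 in all libraries, summed to 174, 71.6, 178 and 97.7 CPM against 17.4 to 44.9 CPM. Only 1 gene of each of these lists reached a mean of 20 CPM. Above the basal class in all 4 libraries were 1 gland gene and 2 melanocyte genes.

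Since the rule set the class apart from basal cells, the genes that differed between these classes are a description with no test. Of 5329 genes at 20 CPM or more in the higher class of each library, 146 were at least 2-fold higher than in the basal class in every library (2.74%). Of 5863, 87 were at least 2-fold lower (1.48%). Ratios here and below are log2 ratios of CPM after adding 5 CPM, which understates the change of low genes. Lgr5 was among the largest, at 2.40, 3.24, 3.14 and 2.38 in the unamputated, 12, 17 and 28 dpa libraries. The transcription factors among the 20 highest were Sox5 (2.002 to 4.23), Sox13 (1.80 to 2.89) and Cux1 (1.83 to 2.92), a homeodomain factor of the follicle. Cxcl14, a chemokine, was the most abundant of them, at 3020, 2626, 2573 and 2240 CPM against 424 to 619 CPM in basal cells. Smoc1, a matrix protein that binds BMP pathway components, stood at 112, 38.0, 398 and 54.2 CPM against at most 10.6 CPM. Ank, a pyrophosphate transporter, stood at 582, 266, 398 and 315 CPM against at most 85.7 CPM.

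Krt75, the keratin of the companion layer, headed the ranking at 114, 40.3, 164 and 194 CPM against 1.44 to 12.0 CPM, but it rested on few cells. In the unamputated library 1 member held 81.8% of its UMIs, and it was detected in 10.2% of members there. The others of the 20 were Gm973, Pclo, Krtap17-1, Pdzrn3, Phactr1, Cntfr, Farp1, Atp8a2, Ctnnd2, Caln1, Arl15 and Rai14; without the mixed cells the smallest ratio over libraries of these 20 genes ran from 1.76 to 2.74. Under the stricter cell filter that of Caln1 was 0.92, under 2-fold.

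The 10 genes furthest below the basal class included keratins of the spinous layer. Krt1 and Krt10, which pair with each other, stood at 34.9 and 70.5 CPM in unamputated members against 1573 and 1173 CPM in basal cells. Igfbp2, which binds insulin-like growth factors, stood at 3.71, 17.9, 0 and 7.84 CPM against 403 to 581 CPM. Sox6, a close relative of Sox5, stood at 2.23, 2.24, 9.36 and 15.7 CPM against 240 to 635 CPM, so that these SoxD factors lay on opposite sides of the class boundary. The rest were Tspear, Tgm3, Krtdap, Klk8, Prxl2a and Cstdc5. The ratio was closest to 0 at 28 dpa for 6 of the 10, at -2.99 for Krt1, -2.65 for Krt10, -2.77 for Cstdc5, -3.05 for Krtdap, -3.56 for Sox6 and -3.89 for Tspear. For Cstdc5 the basal class stood at 831, 2131, 562 and 38.8 CPM, and members at no more than 8.95 CPM in any library.

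**Figure D3:**
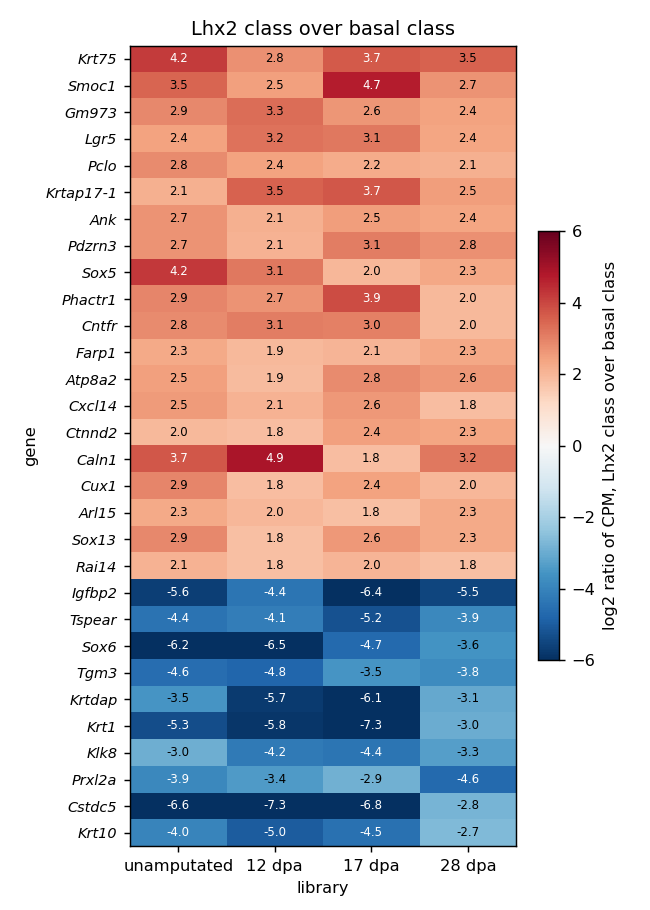
Log2 ratio of CPM (5 CPM added), Lhx2 class over basal class, for the 20 highest and 10 lowest genes (rows) in the 4 libraries (columns); colour and printed numbers give the ratio. Lgr5 runs from 2.38 to 3.24, and in the lower block 6 of the 10 genes, Krt1 and Krt10 among them, are closest to 0 at 28 dpa.

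The second comparison set each dpa library beside the unamputated one within the class. Of 6965 genes whose mean over libraries reached 20 CPM, 234 were at least 2-fold higher at 12 dpa (3.36%) and 578 lower (8.3%). At 17 dpa 318 were higher (4.57%) and 562 lower (8.07%), and at 28 dpa 236 were higher (3.39%) and 304 lower (4.36%). The median gene itself lay at -0.18, -0.09 and -0.14, and changes are to be read against this shift. Centring on it turned the splits to 411 higher and 352 lower at 12 dpa and to 323 and 182 at 28 dpa, and left 398 and 474 at 17 dpa. Without the mixed cells 125 were higher (1.79%) and 623 lower (8.94%) at 12 dpa, 261 (3.75%) and 648 (9.3%) at 17 dpa, and 172 (2.47%) and 264 (3.79%) at 28 dpa. At 28 dpa 145 and 219 of these were also past 2-fold in the full class. At 12 and 17 dpa 1 member held 13.4% and 10.0% of all UMIs of the class. Single genes are therefore followed mainly at 28 dpa, where 153 members stand beside 98. Shares of members with a UMI are unthinned unless said to be thinned, and the 28 dpa members were shallower.

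Suprabasal differentiation genes were higher at 28 dpa, in members and also in cells outside the keratin gate. Of 12 compared, 7 were at least 2-fold higher and none lower, beside 3.39% and 4.36% of all genes. The median log2 ratio was 1.09 beside -0.14 for all genes, and 1.23 with 8 genes past 2-fold without the mixed cells. In the basal class the median was 0.48. The list summed to 4407 CPM in unamputated and 8419 CPM in 28 dpa members, and to 2713 and 4761 CPM in the cells of those libraries that failed the keratin gate, which can include keratinocytes of upper layers. Sbsn (suprabasin, a secreted protein of upper layers) stood at 412 CPM in unamputated members (exact Poisson 95% interval 378 to 447), 67.1 at 12 dpa (45.3 to 95.8), 879 at 17 dpa (758 to 1015) and 935 at 28 dpa (885 to 987). The 17 and 28 dpa libraries were thus high and the 12 dpa library low. After thinning Sbsn was detected in 30.6% of unamputated and 53.8% of 28 dpa members, and in 4.07% and 9.99% of immune cells. Ly6d, a surface protein of stratified epithelium, stood at 307, 51.4, 281 and 777 CPM, so only the 28 dpa library stood above the unamputated one. It was detected in 22.4% of unamputated members and 54.9% at 28 dpa.

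Krtdap, a keratinocyte differentiation peptide, stood at 96.4, 31.3, 18.7 and 240 CPM, and Calm4, a calmodulin-like protein of the epidermis, at 146, 17.9, 211 and 298 CPM. Krt10 stood at 70.5, 49.2, 56.1 and 173 CPM and Krt1 at 34.9, 35.8, 4.68 and 118 CPM. At 28 dpa 1 member held 36.0% of the Krt10 and 59.0% of the Krt1 UMIs. Both genes count among the 7, and no ratio was computed without such a member. Krt10 was detected in 58.2% of unamputated members and in 60.8% of the shallower 28 dpa members, unthinned. Outside the keratin gate Krtdap stood at 220 CPM in the unamputated and 526 CPM in the 28 dpa library, Krt10 at 902 and 1388 CPM and Krt1 at 519 and 603 CPM, all above the level in members. The part of free RNA in the members' levels was not tested. Notch3, a receptor of suprabasal cells and the last of the 7, stood at 18.5, 15.7, 46.8 and 72.0 CPM. It was found in 11.2% of unamputated and 33.3% of 28 dpa members. Notch3 is also made by mural cells, and the mural genes Rgs5, Acta2 and Tagln summed to 162 CPM in unamputated and 991 CPM in 28 dpa members; their part in its level was not tested. Lgals7, the most abundant gene of the list, stood at 2466, 3802, 3766 and 4604 CPM and did not reach 2-fold. At 12 dpa the same list had a median of -0.82, with 5 of 12 lower, and at 17 dpa of 0.19, with 2 higher and 2 lower.

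Signals that follicle cells send to nerves and muscle were lower at 28 dpa. All 5 compared genes of this list were at least 2-fold lower, beside 4.36% of all genes. Their median was -1.51 (basal class -0.51, without mixed cells -1.47 and 4 of 5 past 2-fold). Bdnf, a neurotrophin that guides touch neurons to follicles, stood at 42.3 CPM (32.0 to 54.8), 20.1 (9.20 to 38.2), 37.4 (16.2 to 73.7) and 7.13 (3.42 to 13.1). Ntf3, another neurotrophin, stood at 44.5, 38.0, 28.1 and 2.85 CPM, and was detected in 23 of 98 unamputated but 4 of 153 members at 28 dpa. Npnt (nephronectin), the bulge matrix protein that anchors the arrector pili muscle, stood at 105, 82.8, 108 and 33.5 CPM. In these genes the 28 dpa library was the lowest and its interval lay below that of the unamputated library. Egfl6, a matrix ligand for lanceolate nerve endings, was already low at 12 dpa: 54.9, 15.7, 18.7 and 17.8 CPM. Nrg1, an ErbB ligand, stood at 185, 35.8, 98.2 and 82.7 CPM.

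Of 23 Wnt pathway genes, 7 were at least 2-fold lower at 28 dpa and none higher, beside 4.36% and 3.39% of all genes. The median was -0.72 (without mixed cells -0.59 and 5 lower). The basal class had a median of -0.47. The R-spondin receptors Lgr4 and Lgr5, which amplify Wnt signals, had ratios of -1.12 (interval of the CPM ratio -1.30 to -0.96) and -1.14 (-1.33 to -0.98). Both were at -0.97, under 2-fold, without the mixed cells. Lgr4 stood at 673, 449.6, 477 and 307 CPM. Both were also lower in basal cells, at -1.06 and -1.11. Znrf3, the ubiquitin ligase that removes Wnt receptors, stood at 271, 183, 145 and 90.5 CPM, and the secreted inhibitors Sostdc1 and Sfrp1 at 151, 60.4, 37.4 and 39.9 CPM and at 225, 103, 178 and 87.7 CPM. The lower genes thus included receptors and inhibitors alike. Dkk3 and Wnt5a were the other members past 2-fold, at -1.08 and -1.16, while Ctnnb1 (beta-catenin) was at 0.05.

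Bulge genes had a median of -0.66 at 28 dpa (basal class -0.42) with 3 of 11 at least 2-fold lower, and 1 without the mixed cells. Of all genes 4.36% were lower, and 3 of the 11 had ratios above 0. Cd34 was detected after thinning in 7.14% of unamputated members (2.92 to 14.2) and in 15.4% at 28 dpa (9.90 to 22.4). Krt15, a gate gene outside the list, had a ratio of 0.56, and of 0.73 without the mixed cells. Postn, a matrix protein, stood at 671, 1141, 1488 and 225 CPM, and Runx1, a factor that promotes stem cell activation, at 479, 557, 636 and 232 CPM. Without the mixed cells Postn, also a stromal gene, stood at 550.2, 232, 831 and 177 CPM and Runx1 at 486, 523, 729 and 244 CPM. Both were thus below the unamputated level at 28 dpa with and without these cells, while Postn at 12 dpa was above it with them and below it without. After thinning Postn was detected in 40.8%, 39.3%, 38.1% and 22.4% of members, and in 9.98%, 19.6%, 12.6% and 11.7% of immune cells. Sox9 and Nfatc1 barely differed at 28 dpa (-0.14 and 0.13). Of 9 hedgehog pathway genes 2 were past 2-fold, both lower: Gli2, a transcriptional effector, at 375, 335, 168 and 149 CPM, and Boc, a co-receptor, at 162, 114, 140 and 69.2 CPM. The median was -0.62, against -0.52 in basal cells, and -0.44 without the mixed cells, where Cdon, another co-receptor, was also past 2-fold (-1.57). Of 6 hair germ regulators Cux1 alone passed, at 930.1, 485, 566 and 359 CPM.

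Of 12 hemidesmosome and basement membrane genes, 3 were at least 2-fold lower at 28 dpa, beside 4.36% of all genes. The median was -0.34, and -0.38 in the basal class. The 3 were Itga6, the integrin that marks basal and bulge cells (352, 154, 187 and 150.4 CPM), the laminin chain Lama3 (198, 101, 150 and 89.8 CPM) and the anchoring fibril collagen Col7a1 (69.7, 91.7, 131 and 27.1 CPM). Without the mixed cells Lama3 was no longer past 2-fold (-0.95). Of 20 BMP and TGF-beta genes 3 were lower (Tgfb2, Tgfb3 and Tgfbr1, at -1.07, -1.40 and -1.04). The median was -0.29, and -0.35 in the basal class. Of 7 FGF and EGF genes 2 were lower, Fgfr2 (-1.03, and -0.90 without the mixed cells) and the EGF receptor inhibitor Errfi1 (-1.27). The median of that list was -0.57, and -0.35 in the basal class. In the Notch list, Notch3 (1.71) and the feedback inhibitor Nrarp (1.17) were the 2 of 8 past 2-fold, both higher, beside 3.39% of all genes. The median was 0.16, and -0.19 in the basal class.

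The 28 dpa members also lay nearer the limit of the rule, with 18 of 153 at exactly 2 UMIs of the choosing genes against 3 of 98 in the unamputated library. With at least 3 UMIs required, the 28 dpa medians were 1.15 for suprabasal genes, -1.47 for nerve and niche signals, -0.64 for Wnt genes and -0.66 for bulge genes. That limit does not bear on the other sums of the rule. The basal sum was 0 in 51 of 153 members at 28 dpa and 7 of 98 unamputated ones. The suprabasal sum was 0 in 82 and 77 of them. The part of these differences in the medians was not tested. The median depth was 7373 UMIs per member at 28 dpa and 12101 in the unamputated library, and its part in these medians was not tested.

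**Figure D4:**
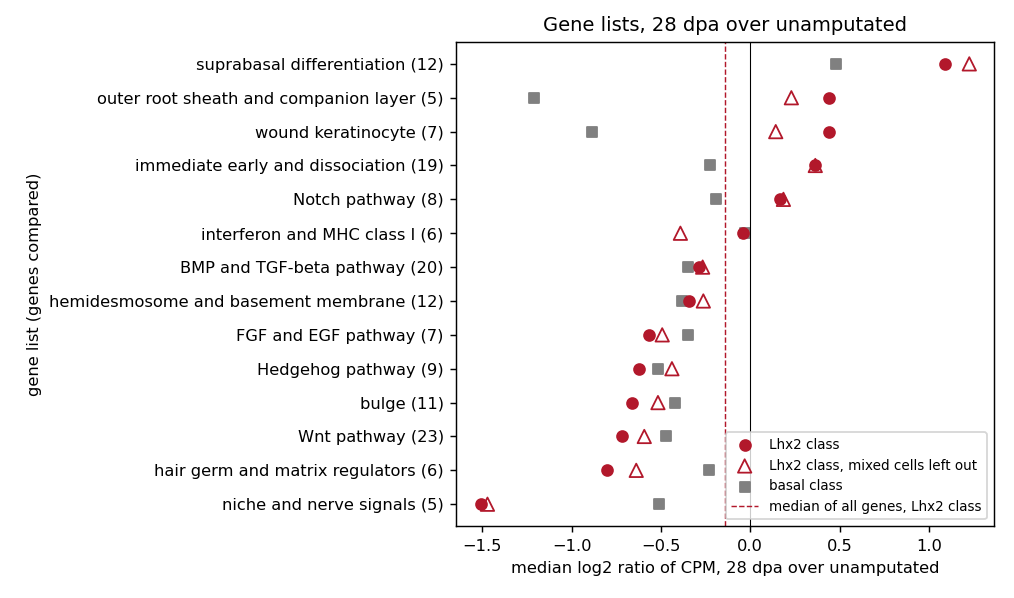
Median log2 ratio of CPM (horizontal axis), 28 dpa over unamputated, of each gene list (rows, genes compared in brackets) in the Lhx2 class, in the Lhx2 class without mixed cells and in the basal class; the dashed line is the median of all genes in the Lhx2 class. Suprabasal genes sit at 1.09 and nerve and niche signals at -1.51.

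Of 7 wound keratinocyte genes, 3 were higher and 1 lower at 28 dpa with a median of 0.44, and 1 higher and 2 lower without the mixed cells (median 0.14). Of all genes 3.39% were higher and 4.36% lower. Over all alternatives the median ran from -0.50 to 1.01. Krt16, a keratin of activated epidermis, stood at 12.6, 33.5, 60.8 and 105 CPM in members and at 193, 214, 12.7 and 19.3 CPM in basal cells. In members 1 cell held 80% of its UMIs at 12 dpa and the only UMIs at 17 dpa. Without the mixed cells the 12 dpa level was 9.40 CPM and its ratio turned from 1.13 to -0.33, while the 28 dpa ratio went from 2.64 to 2.09. It was detected in 6 of 98 and 18 of 153 members. Itgb6, the epithelial integrin chain of wounds and follicles, went the other way, at 149, 62.6, 46.8 and 22.8 CPM. Krt6a, found in the companion layer, inner bulge and wounds, stood at 575, 87.2, 370 and 781 CPM; after thinning it was detected in 20.4%, 17.9%, 38.1% and 46.2% of members. Of 19 immediate early and stress genes, which dissociation can induce, 3 were higher at 28 dpa (Hspb1, Zfp36 and Fosb) with a median of 0.36, while Fos and Jun were at 0.42 and 0.28. Hspb1, a small heat shock protein also made by differentiating keratinocytes, stood at 366, 280, 622 and 914 CPM. Interferon and MHC class I genes had a median of -0.04 with none of 6 past 2-fold, of -0.39 without the mixed cells, and of 0.10 once centred on the median gene.

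Of 53 keratin genes in the files, 14 reached 20 CPM in any library. Krt14 stood at 2529, 2123, 1988 and 3066 CPM, Krt5 at 2580, 1780, 3083 and 3102 CPM and Krt17, typical of the outer root sheath, at 2489, 2203, 1955 and 3514 CPM; these belong to the gate. Krt24 stood at 134, 31.3, 126 and 229 CPM. Krt79, a keratin of the upper follicle, stood at 80.8, 188, 9.36 and 26.4 CPM, and 1 cell held 92.9% of its UMIs at 12 dpa. In the unamputated library 1 cell held 81.7% of them, with and without the mixed cells. Without the mixed cells Krt79 stood at 18.8 CPM at 12 dpa, and its 12 dpa ratio to the unamputated library turned from 1.17 to -1.90. Its ratios thus rest largely on single cells. The 28 dpa ratio of Krt75 was 0.74 and became -1.10 without the mixed cells, so no direction can be given for it. Krt27, Krt42 and Krt80 were above 20 CPM in 1 library each.

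**Figure D5:**
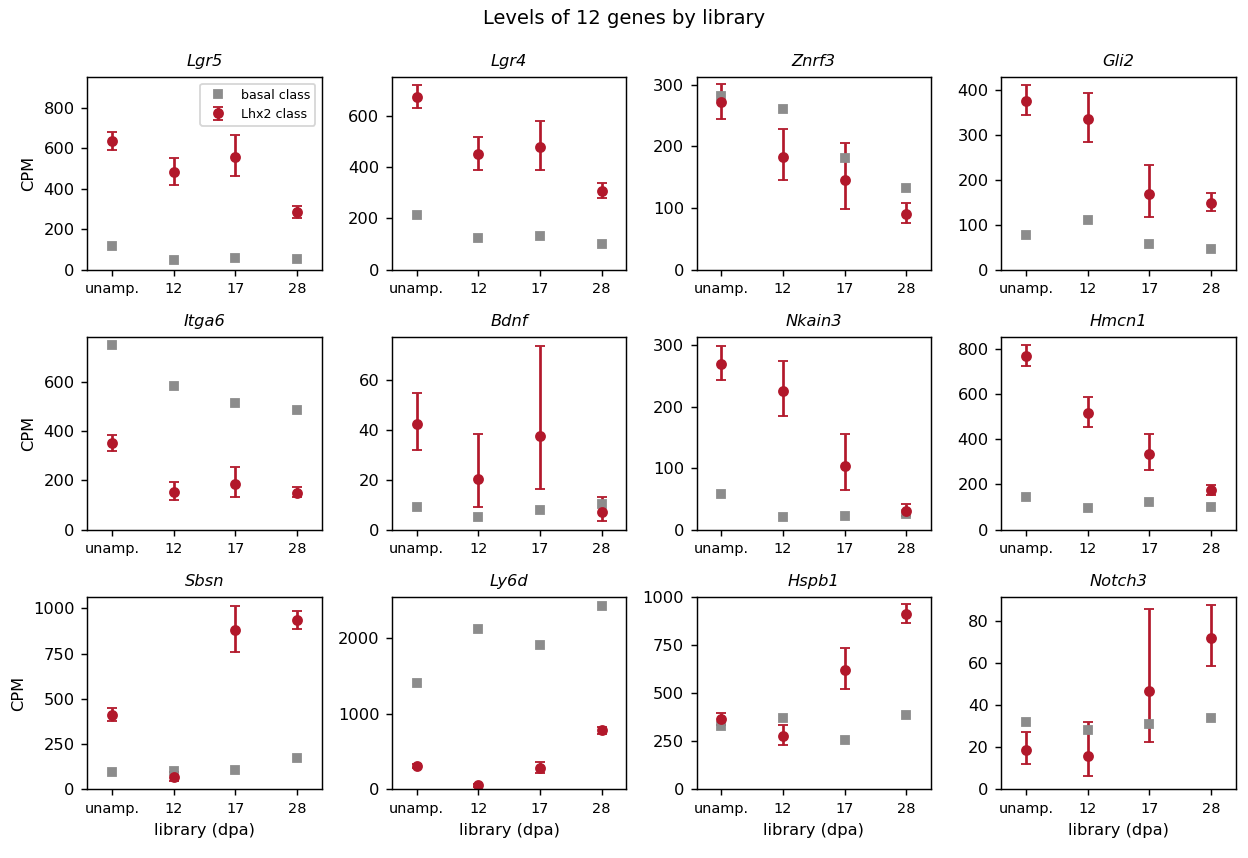
CPM (vertical axes, each from 0) of 12 genes in the 4 libraries; red points are the Lhx2 class with exact Poisson 95% intervals for counting error, grey squares the basal class. Lgr5, Lgr4, Znrf3, Gli2, Itga6, Bdnf, Nkain3 and Hmcn1 are lowest at 28 dpa in the Lhx2 class, and Sbsn, Ly6d, Hspb1 and Notch3 highest.

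The genes with the 10 lowest ratios at 28 dpa each stood above 50 CPM in unamputated members. The paired type IV collagen chains Col4a3 and Col4a4, which lie side by side on chromosome 1, stood at 60.8, 0, 0 and 0 CPM and at 134, 11.2, 37.4 and 6.42 CPM. Col4a3 was found in 16 of 98 unamputated members and in no other member. Against a floor of 3 counts over the 28 dpa members, it was at least 28.4-fold lower there. Nkain3, which interacts with a sodium pump subunit, stood at 270.0, 226, 103 and 30.7 CPM, and after thinning was detected in 35.7% of unamputated members, 28.6% at 17 dpa and 5.59% at 28 dpa. Its relative Nkain2 stood at 234, 17.9, 60.8 and 12.1 CPM. The axon guidance receptor Robo2 stood at 396, 96.2, 267 and 65.6 CPM and the adhesion molecule Ncam1 at 74.9, 31.3, 9.36 and 8.56 CPM. Nlgn1, Itgb6, Adamts18 and Kcnb2 completed the 10. Without the mixed cells all 10 ratios lay between -3.77 and -2.31. Under the stricter cell filter Kcnb2 was at -0.91, under 2-fold. In the unamputated library 1 cell held between 11.4% and 35.6% of the UMIs of each of the 10. Hmcn1 (hemicentin), a matrix protein named among the lowest only when mixed cells were left out, stood at 770, 519, 337 and 176 CPM and was found in 75 of 98 and 71 of 153 members.

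The 10 highest ratios rested largely on few cells. Ibsp (bone sialoprotein) and Mmp13, genes of bone-forming cells, had ratios of 7.15 and 3.31 that became 0.40 and 0.08 without the mixed cells, and 1 cell held 99.7% and 95.6% of their 28 dpa UMIs. Spp1 went from 6.68 to 1.23 and Fxyd2 from 4.56 to 1.99. Aqp1, Ccn3, Mustn1 and Pf4 went from between 3.47 and 3.93 to between 1.69 and 3.05. Sparcl1 and Myh11, genes of vascular smooth muscle and stromal cells, had ratios of 4.41 and 3.70, and of 4.41 and 3.87 without the mixed cells. With doublets removed by Scrublet score, Sparcl1 was at 0.89, Myh11 at 0.65, Ccn3 at 0.94 and Mustn1 at 0.44, all under 2-fold. The summed level of Rgs5, Acta2 and Tagln moved with them: 162, 136, 79.5 and 991 CPM in all members and 153, 40.7, 56.9 and 904 CPM without the mixed cells, with Tagln detected in 26.8% of 28 dpa members and in 8.03% of immune cells there. The part of mural RNA in these ratios was not tested.

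Named again without the mixed cells, the 10 highest were Sparcl1, Myh11, Prkg1, Mt4, Spink5, Ralgps1, Krt16, Myl9, Gadd45b and Chit1. Spink5, a protease inhibitor of the cornifying epidermis, stood at 17.1, 0, 117 and 135 CPM in all members and was detected in 9 of 98 and 40 of 153. It was high in the 17 and 28 dpa libraries and not detected at 12 dpa, where the upper bound was 8.25 CPM. Mt4, a metallothionein of stratified epithelium, stood at 8.90, 293, 14.0 and 125 CPM, with 1 cell holding 62.3% of its UMIs among the 28 dpa members kept.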

How the data were processed

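The deposited values were whole-number UMI counts per gene and barcode, made with Cell Ranger 7.1.0 (per the file headers) on mm10 per the submitters' processing notes; the rest of the upstream processing was not given in the sources used here. The files listed 32285 genes. Coordinates are those of GENCODE M21 (GRCm38). Members and gene lists were chosen with earlier results of these data known, and a list named here stands for its counts and median, with no set test.

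UMIs of the members were summed per library and scaled to CPM. A member of the class held between 1772 and 59719 UMIs, and the class sums were 1348202, 447101, 213764 and 1402549 UMIs in the unamputated, 12, 17 and 28 dpa libraries. Ratios are log2 of CPM plus 5; intervals are exact (Clopper-Pearson for shares, Poisson for CPM, conditional binomial for ratios) and cover counting error only. The members were not filtered for doublets; removal by Scrublet score (scanpy 1.11.5) was an alternative.

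Genes named were the 20 highest and 10 lowest against the basal class, the 10 highest and 10 lowest at 28 dpa among genes reaching 50 CPM in the higher library of the pair whose interval excluded equality, keratins of at least 20 CPM in any library, and from each list the most abundant members, those past 2-fold and markers that bear on its name. The 28 dpa list left out the genes of the lists for other cell types (fibroblast, mural, endothelial, immune, Schwann, melanocyte and red cell), but not every gene such cells make, and sex-linked, mitochondrial, haemoglobin and immunoglobulin genes; no gene was named by the size of its ratio to the unamputated library where a library had under 50 members. Genes thinned for detection shares, and the definition of mixed cells, were chosen after seeing the data. The fold and interval steps were tested on simulated data. Those counts were Poisson draws without any spread between cells, so they do not test how far single cells move a value.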

Additional observations from a re-analysis of the deposited data

Results flagged for a closer look

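Xist, the transcript of the inactive X chromosome, gave a signal in a library whose label names pooled sexes. It stood at 687 CPM in the 12 dpa members, against 1.48 CPM in the members of the unamputated library, 0 at 17 dpa and 0.713 CPM at 28 dpa. Transcripts of 4 genes of the Y chromosome (Uty, Kdm5d, Ddx3y, Eif2s3y) summed to 412, 4.47, 398 and 273 CPM in the unamputated, 12, 17 and 28 dpa members. The part of sex in the 12 dpa values was not tested.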

How the results depend on the processing

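No paired analysis was possible because each group held 1 library and the libraries carry no shared replicate number. For the same reason no replicate could be left out. Of the lists described at 28 dpa, the medians over the alternatives run went from 0.88 to 1.23 for suprabasal genes, from -1.66 to -1.37 for nerve and niche signals, from -0.79 to -0.50 for Wnt genes and from -0.69 to -0.38 for bulge genes. Over all lists and comparisons, 460 medians moved by less than the spread taken as error, 35 moved more and 3 reversed; for single genes the numbers were 326, 63 and 1. The reversed ones were the fibroblast list at 12 dpa (-1.28 with doublets removed) and at 17 dpa (-0.96 with at least 30 keratin UMIs), the upper follicle list at 28 dpa (0.30 under the stricter cell filter) and Ibsp at 28 dpa (-0.40 without members of 3 or more collagen UMIs). For the fibroblast list the medians without the mixed cells were 0.58 at 12 dpa and 0.69 at 17 dpa. The cause was not tested for any of the reversed values.

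The numbers of genes past 2-fold depended on the settings. Higher genes at 12 dpa numbered 128 with doublets removed, 411 centred on the median gene, 106 at a mean of 50 CPM, 512 with sums thinned to 1 total and 125 without mixed cells; lower ones numbered 352 centred and 284 at 50 CPM. Higher genes at 17 dpa numbered 133 at 50 CPM and 536 thinned, and lower ones 868 under the stricter cell filter and 209 at 50 CPM. Higher genes at 28 dpa numbered 389 under the stricter filter, 117 at 50 CPM and 519 thinned. Lower ones at 28 dpa numbered 697 under the stricter filter, 182 centred, 178 at 50 CPM, 788 thinned and 477 without members of 3 or more collagen UMIs. The 50 CPM setting compares fewer genes and the thinned sums hold fewer UMIs; other causes were not tested.

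The share of the class was 15.3%, 16.2%, 7.84% and 15.4% under the stricter filter in the unamputated, 12, 17 and 28 dpa libraries. It was 6.49%, 2.99% and 7.87% in the unamputated, 17 and 28 dpa libraries with cells thinned before the rule, and 0.820%, 0.403%, 0.265% and 1.31% of all filtered cells. Members left by the stricter filter numbered 40, 23, 16 and 87. At 12 and 17 dpa 28 and 23 members limit single genes, and no value was computed there without members of 3 or more collagen UMIs, which left 1 and 8 cells.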

Other observations

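Bmp6, a BMP ligand outside the lists, was detected after thinning in 18.4%, 3.57%, 33.3% and 32.2% of members of the unamputated, 12, 17 and 28 dpa libraries, against 1.95% to 4.87% of basal cells and 9.24%, 0% (0 of 65 cells, exact upper bound 5.52%), 13.2% and 19.7% of the suprabasal class. Dapl1, a gene of early stratifying epithelium, was detected in 23.5%, 14.3%, 28.6% and 53.8% of members, in 11.3%, 11.9%, 16.6% and 22.1% of basal cells and in 42.9%, 27.7%, 51.5% and 65.6% of the suprabasal class (the suprabasal sum largest). Both were picked after their values were seen.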
